A study of Saccharomyces cerevisiae with 72 samples.

Results

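The comparison described here is between 2 forms of Yox1, a homeodomain repressor of budding yeast, 60 min after each was switched on: the wild type protein and Yox1-9A, which lacks Cdk1 phosphorylation sites. It uses 24 of the 72 RNA sequencing libraries of the series, in 8 groups of 3, all from the yox1 table of 36 libraries. These libraries were chosen by strain and time per the labels, with no measured value. For each allele, the change from 0 to 60 min in a control strain was subtracted from the change in an inducible strain, which gives an induction value, and the value for Yox1 was then subtracted from the value for Yox1-9A. The 12 libraries at 20 min of the same strains serve only to ask when a difference appeared.

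All strains were MATa haploids of the BY4741 background. They shared the alleles ura3Δ0 and his3Δ1, lypΔ0 and can1Δ::STE2pr-SpHIS5, and made the estradiol-activated factor Z3EV from the ACT1 promoter (HAP1+::NatMX::pACT1-Z3EV-ENO2term). The inducible strains YAG180 and YMC213 had Z4pr, the promoter that Z3EV activates, upstream of the gene (URA3::Z4pr-YOX1-3V5-KanMx or URA3::Z4pr-yox1-9A-3V5-KanMx). The control strains YAG181 and YMC214 kept YOX1-3V5-KanMx or yox1-9A-3V5-KanMx behind its own promoter and carried URA3::Z4pr-HO. Each group is 1 strain, grown asynchronously in rich medium with dextrose and sampled at 0 or 60 min of 1 µM estradiol, with 20 min as the further time. The replicates are numbered, but no label tells whether they came from separate cultures. The p-values therefore rest on a spread between samples that may be in part technical.

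Yox1 binds beside the MADS-box factor Mcm1 at early cell cycle boxes and keeps M/G1 genes, such as those of the Mcm2-7 helicase, silent outside a window in late M and early G1. Cdk1 phosphorylates Yox1, and the comparison asks whether a protein that cannot be phosphorylated at these sites represses other genes, or represses the same genes further. A second wave of genes at the end of mitosis, the SIC1 cluster, includes targets of the activator Swi5. Several of its genes are expressed mainly in the daughter cell and encode enzymes that digest the septum between mother and daughter.

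Levels are given as TPM, the relative abundance of transcripts after scaling for gene length and library size, and all differences are on the log2(TPM + 1) scale. Of 6857 genes, the 6255 whose mean over the libraries reached 1 TPM were tested in 1 limma fit. A gene was called where the Benjamini-Hochberg adjusted p was under 0.05 and the absolute log2 difference above 0.58. Each library had 6198 to 6301 genes above 1 TPM, every library had a correlation across genes of at least 0.992 with its closest other library, and no 2 libraries were identical. The sources give no read depth. Levels at 0 min fit the labelled mating type a, since STE2, the receptor for alpha factor, stood between 476.3 and 588.9 TPM at 0 min, and STE3, the receptor of alpha cells, between 1.67 and 2.84 TPM.

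Yox1-9A left 14 genes lower than Yox1 did at 60 min and none higher. The 14 genes are 0.224% of those tested, and the 0 genes higher are 0%, with 83 genes lower and 54 higher at an unadjusted p under 0.05. Their differences ran from -1.96 for MRH1 to -0.59 for YHB1, with a median of -1.02, where the median over all genes was 0.08. Of the 14, 9 belong to the SIC1 cluster: PIR1, EGT2, DSE4, AMN1, SCW11, RME1, DSE1, CTS1 and DSE2. The others are MRH1, PHO3, PRY3, FAA3 and YHB1. In all 14 the 3 Yox1-9A libraries at 60 min lay below the 3 Yox1 libraries, a separation that 10.5% of all genes tested showed in that direction and 8.3% in the other. When the inducible strains were compared at 60 min with nothing subtracted, 12 of the 14 were among the 63 genes (1.01%) called lower, and 3 genes (0.048%) were higher. The exceptions, DSE2 and YHB1, passed the adjusted p but had log2 differences of -0.58 and -0.55. Before estradiol 0 of the 14 were called between the inducible strains, where 1 gene in all (0.016%) was lower, and their log2 differences lay between -0.23 and 0.29 (smallest adjusted p = 0.604). Between the control strains at 60 min 0 genes were called (0%), and the 14 lay between -0.10 and 0.11 (smallest adjusted p = 0.972).

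**Figure D1:**
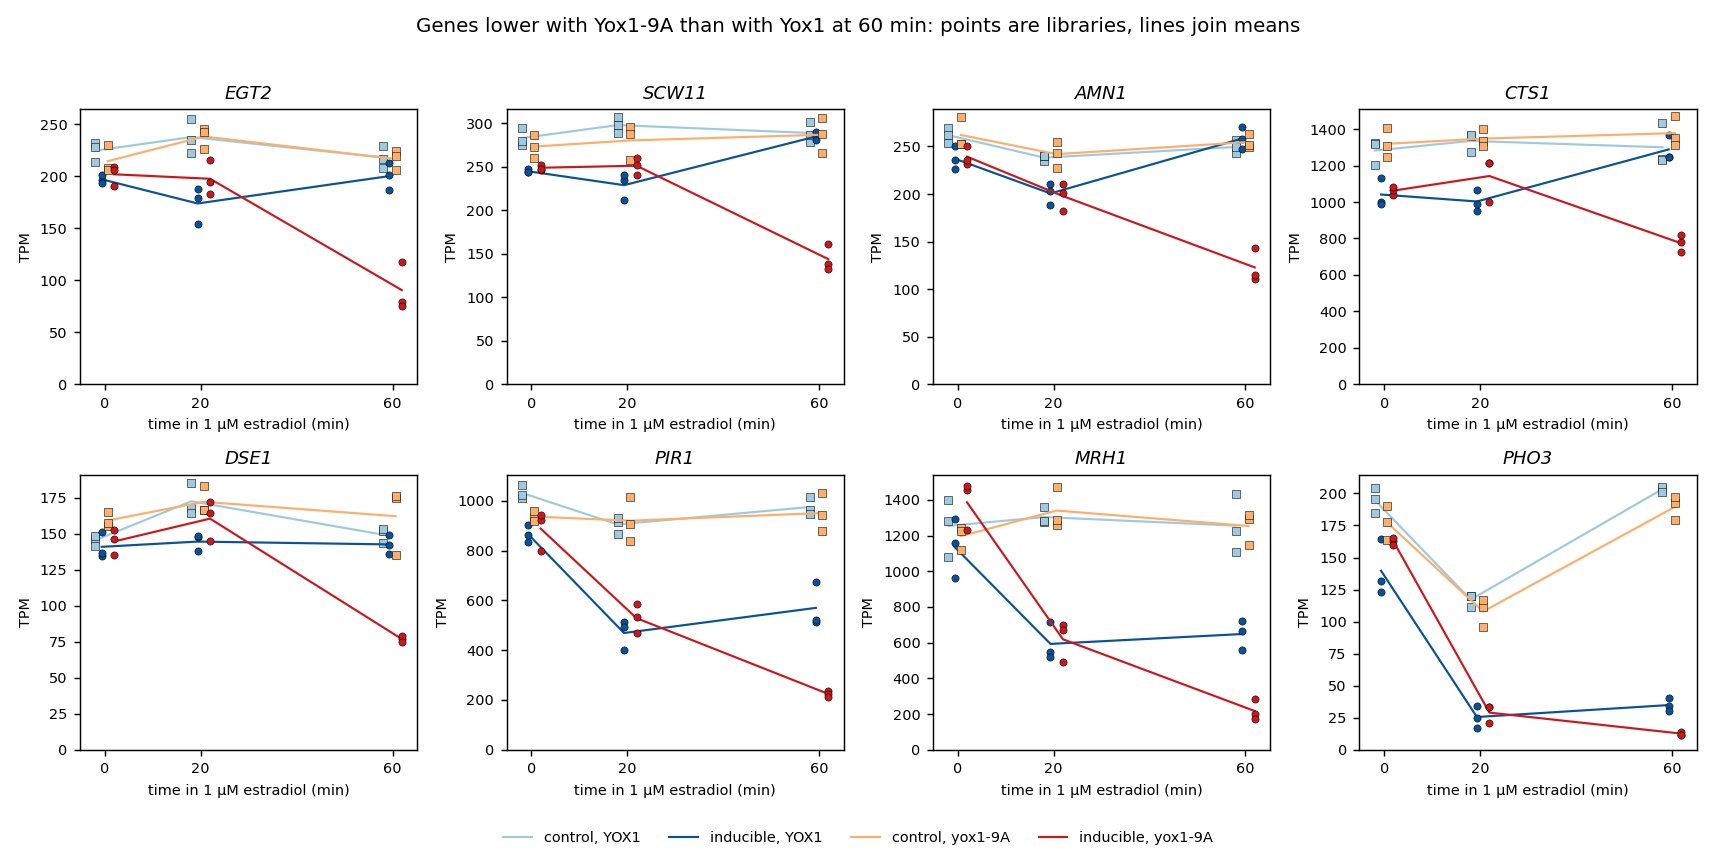
TPM of 8 of the called genes against time in 1 µM estradiol (min), with a point for each library and lines through the means of 3, for the 4 strains. At 60 min the red points of the inducible yox1-9A strain lie below the dark blue points of the inducible YOX1 strain in every panel, while at 20 min the 2 colours lie close together.

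Several genes called act on the wall at the septum. SCW11 (YGL028C, chromosome VII, 441281 to 442909, minus strand), a cell wall glucanase made by daughter cells, stood at 289.6, 284 and 281.1 TPM in the 3 Yox1 libraries at 60 min and at 160.9, 137.8 and 133.1 TPM in the Yox1-9A libraries. Before estradiol the same strains had held 243.8 to 247.3 and 246.3 to 252.7 TPM, so at 60 min the Yox1 libraries were all above, and the Yox1-9A libraries all below, their own start. The difference between the alleles was log2 -1.05 (SE 0.13, 95% interval -1.32 to -0.77, adjusted p = 8.81e-05 in limma), a 2.07-fold lower value.

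EGT2 (YNL327W, chromosome XIV, 24048 to 27173, plus strand), a cell wall protein of early G1, had 212.5, 200.7 and 187.1 TPM with Yox1 and 117.3, 78.97 and 75.26 TPM with Yox1-9A at 60 min. The Yox1 libraries spanned their range at 0 min, 193 to 201.5 TPM, and the Yox1-9A libraries were all below their own 190.5 to 208.9 TPM. Its difference was log2 -1.25 (SE 0.21, adjusted p = 0.00280).

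CTS1 (YLR286C, chromosome XII, 708448 to 710136, minus strand), the endochitinase that cuts the septum, was the most abundant of the SIC1 cluster genes called. It had 1370, 1249 and 1247 TPM with Yox1 and 780.4, 816.9 and 724.4 TPM with Yox1-9A at 60 min. At 0 min the Yox1 strain had held 991.1 to 1134 TPM and the Yox1-9A strain 1037 to 1084 TPM. The induction value was 0.29 with Yox1 and -0.52 with Yox1-9A, neither of which was called alone, and the difference between them was (log2 -0.81, SE 0.15, adjusted p = 0.00956). The CTS1 call was lost when the libraries were scaled to a common median (adjusted p = 0.425, the highest of its alternatives).

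The daughter-specific genes DSE1, DSE2 and DSE4 were called lower too. DSE1 (YER124C, chromosome V, 407342 to 409063, minus strand) had 136, 142.3 and 149.2 TPM with Yox1 and 76.67, 78.88 and 74.93 TPM with Yox1-9A at 60 min. The DSE1 libraries of the Yox1 strain lay within its range at 0 min, 134.4 to 151.4 TPM, whereas those of the Yox1-9A strain were all below the 134.9 to 152.3 TPM it had at 0 min. DSE2 (YHR143W, chromosome VIII, 385510 to 386487, plus strand) had 519.9 to 615.6 TPM with Yox1 and 370.1 to 394.5 TPM with Yox1-9A. DSE4 (YNR067C, chromosome XIV, 755746 to 759099, minus strand) had 71.69 to 82.12 TPM and 29.94 to 48.16 TPM, again without overlap. The log2 differences were -0.90 for DSE1 (adjusted p = 0.00621), -1.20 for DSE4, a glucanase (adjusted p = 0.0157), and -0.67 for DSE2 (adjusted p = 0.0292). The calls of DSE2 and DSE4 were lost under both common median scaling and quantile normalization, with adjusted p of up to 0.665 and 0.0706, and that of DSE2 also in 13 of 24 fits that each left out 1 library.

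AMN1 (YBR158W, chromosome II, 556549 to 558198, plus strand), which encodes an inhibitor of the mitotic exit network made in daughter cells, had 257.7, 270.4 and 247.1 TPM with Yox1 and 143.6, 110.5 and 114.5 TPM with Yox1-9A at 60 min. The Yox1 values overlapped or exceeded the 226.1 to 250.2 TPM of 0 min, and the Yox1-9A values were all below their own 231.7 to 250 TPM. The difference was log2 -1.12 (SE 0.15, 95% interval -1.42 to -0.81, adjusted p = 8.81e-05). RME1 (YGR044C, chromosome VII, 582990 to 583892, minus strand), a zinc finger repressor of meiosis that also promotes G1 cyclin expression, had 96.4, 104.6 and 102.4 TPM against 47.53, 40.75 and 39.32 TPM, a log2 difference of -0.99 (adjusted p = 0.0373). The RME1 call was lost in 17 of 24 fits that each left out 1 library, with an adjusted p of up to 0.113.

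PIR1 (YKL164C, chromosome XI, 141794 to 142819, minus strand), a structural mannoprotein cross-linked to the wall, was below its start with both alleles at 20 min and then parted. At 20 min it had 511.9, 400.6 and 494.3 TPM with Yox1 and 531.7, 469.6 and 584.4 TPM with Yox1-9A, which overlap. At 60 min the Yox1 libraries held 515, 522.4 and 672.2 TPM and the Yox1-9A libraries 235.8, 223.8 and 213.2 TPM. Every PIR1 value with Yox1-9A was thus below every value with Yox1. The difference was log2 -1.47 (SE 0.19, 95% interval -1.86 to -1.07, adjusted p = 8.81e-05). PIR3, a related wall gene, differed by -0.68 (adjusted p = 1.0) at 2.29 to 5.98 TPM in the same libraries.

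MRH1 (YDR033W, chromosome IV, 508147 to 509109, plus strand) had the lowest difference of the genes called. It encodes a plasma membrane protein related to the heat shock protein Hsp30. Its level was 718.6, 666.7 and 559.7 TPM with Yox1 and 282.1, 198.6 and 169.9 TPM with Yox1-9A at 60 min, from 961.1 to 1290 and 1230 to 1475 TPM at 0 min. Both forms lowered the gene, by log2 -0.81 with Yox1 (adjusted p = 0.0316) and -2.76 with Yox1-9A (adjusted p = 1.68e-10), and the difference was -1.96 (SE 0.31, 95% interval -2.60 to -1.32, adjusted p = 0.00152), or 3.88-fold. YRO2, its paralog, differed by -0.83 and was not called (unadjusted p = 0.0726).

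PHO3 (YBR092C, chromosome II, 427698 to 429101, minus strand), a constitutive acid phosphatase, was lowered by both forms as well. It had 40.26, 34.01 and 30.3 TPM with Yox1 and 14.21, 11.78 and 11.78 TPM with Yox1-9A at 60 min, against 201.5 to 204.9 and 179.2 to 197.2 TPM in the control strains. The 2 sets of 3 values do not overlap. The difference was log2 -1.66 (SE 0.33, adjusted p = 0.0157). PHO3 lies beside PHO5, a phosphatase gene of very similar sequence, so reads of either may be split between them. PHO5 had 10.96 to 11.41 TPM with Yox1 and 9.02 to 9.53 TPM with Yox1-9A, a difference of log2 -0.16 (adjusted p = 1.0).

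The remaining 3 genes called are PRY3, FAA3 and YHB1. PRY3 (YJL078C, chromosome X, 291336 to 293981, minus strand), a cell wall protein of the family that binds sterols, had 104.2, 90.19 and 85.28 TPM with Yox1 and 61.88, 51.38 and 51.22 TPM in the Yox1-9A libraries (log2 -0.88, adjusted p = 0.0183). FAA3 (YIL009W, chromosome IX, 339344 to 341428, plus strand), a long chain fatty acyl-CoA synthetase, had 41.75 to 46.71 TPM against 24.33 to 27.46 TPM (log2 -0.86, adjusted p = 0.00956). YHB1 (YGR234W, chromosome VII, 959904 to 961103, plus strand), the nitric oxide oxidoreductase, had 1711 to 1940 TPM against 1210 to 1256 TPM (log2 -0.59, adjusted p = 0.0373). For each of the 3 genes the libraries of the alleles do not overlap. Under common median scaling and quantile normalization these 3 calls were lost, with an adjusted p of up to 0.322 for PRY3 and YHB1 and 0.0706 for FAA3. At 20 min, 3 of the 14 genes (MRH1, PHO3 and PIR1) were called lower in the Yox1-9A induction, where 2.17% of all genes were lower and 0.176% higher, and 5 (these and PRY3 and FAA3) in the Yox1 induction, where 2.4% were lower and 0.16% higher. The coordinates are those of the R64 genome, and 0 of the 14 genes overlap another annotated gene.

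Promoters of these genes were read to see what sequence they share, since 9 of them belong to the SIC1 cluster. The core that Swi5 binds, ACCAGC on either strand, lies within the 600 bases before the start codon in 11 of the 14 genes, or 78.6%, against 16.4% of 5999 promoters. It is also in 12 of the 19 SIC1 cluster promoters, called or not (63.2%), so it is shared with the cluster that 9 of the 14 belong to. Of the 14, only MRH1, PHO3 and DSE4 lack it in this window. At least 2 matches lie before 4 of the 14 genes, against 1.5% of promoters. In the shorter window from 250 bases before to 50 after the start the core is in 2 of 14 (14.3%, against 8.12%), so the matches lie further upstream. The motif and the 600 base window were chosen after the genes were seen. The stretches below, from the R64 genome and written 5′ to 3′ on the strand of the gene, show the core in capitals, also where it reads GCTGGT, since they are the ones that carry this shared feature.

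CTS1, chrXII:710642-710716, minus strand: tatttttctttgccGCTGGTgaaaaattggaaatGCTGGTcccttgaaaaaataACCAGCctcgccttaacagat
EGT2, chrXIV:23838-23868, plus strand: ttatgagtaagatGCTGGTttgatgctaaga
SCW11, chrVII:443425-443455, minus strand: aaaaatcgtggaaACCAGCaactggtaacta
AMN1, chrII:556069-556099, plus strand: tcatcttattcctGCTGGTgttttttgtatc
DSE2, chrVIII:385076-385106, plus strand: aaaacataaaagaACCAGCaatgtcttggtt
RME1, chrVII:584210-584240, minus strand: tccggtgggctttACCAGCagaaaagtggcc

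The CTS1 stretch holds 3 cores, of which the farthest begins 566 and the nearest 526 bases before the start codon. DSE1 also holds 3, and there the stretch is shown because 2 Forkhead motifs, GTAAACA, lie among them, 1 of them separated from a core by a single base; both motifs are in capitals.

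DSE1, chrV:409304-409518, minus strand: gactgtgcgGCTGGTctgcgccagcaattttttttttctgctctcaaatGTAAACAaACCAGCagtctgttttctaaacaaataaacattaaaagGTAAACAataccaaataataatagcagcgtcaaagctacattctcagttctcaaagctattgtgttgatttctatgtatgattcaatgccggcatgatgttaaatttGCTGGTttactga

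TAATTA, a core that homeodomain proteins bind, was less frequent. It was in 3 of 14 promoters in each window, 21.4%, against 15.3% of promoters in the short and 27.2% in the long window. The 3 were MRH1, PIR1 and CTS1 in the short window and PHO3, PIR1 and CTS1 in the long window. PIR1 and PHO3 are shown as genes that hold TAATTA in the long window. In the PIR1 stretch it lies 4 bases from a Swi5 core, and both are in capitals.

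PIR1, chrXI:143000-143040, minus strand: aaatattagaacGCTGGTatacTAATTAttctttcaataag
PHO3, chrII:429349-429379, minus strand: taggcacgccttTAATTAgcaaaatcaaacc

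Of the 19 members of the SIC1 cluster, 9 were called lower at 60 min and 0 higher, 18 had a difference below 0, and the median was -0.95 against 0.08 for all genes, where 33.3% lay below 0. The exception was TEC1, which encodes a filamentation factor, with a log2 difference of 0.18 that lay between -0.18 and 0.46 when each library was left out in turn. Averaged over the 19 genes, the level on the log2(TPM + 1) scale was 6.71, 6.89 and 6.89 in the 3 Yox1 libraries at 60 min, and 6.04, 5.74 and 5.71 in the Yox1-9A libraries. The control strains had 6.95 to 7.14 and 6.85 to 7.15 at that time. The groups of the inducible strains thus do not overlap, and the Yox1-9A libraries are also below every control library. The gene lists were chosen with earlier results of these data known, so these counts and medians are description only.

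At 20 min the averages of the alleles overlapped. The cluster average then was 6.54, 6.51 and 6.48 with Yox1 and 6.66, 6.29 and 6.44 with Yox1-9A, both lower than at 0 min (6.86 to 6.97 and 6.73 to 6.93). All 3 Yox1 libraries at 60 min were above all 3 at 20 min, and all 3 Yox1-9A libraries at 60 min were below all 3 at 20 min. At 60 min 3 members were lower in the Yox1 induction (2.38% of all genes) and 13 in the Yox1-9A induction (3.18% of all genes), with medians of -0.00 and -0.93. Between the control strains at 60 min the median of the cluster was -0.04 with 0 calls.

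The other 10 members did not pass the test. ASH1, the daughter cell repressor of HO, had the lowest difference of the cluster, log2 -1.53 (95% interval -2.39 to -0.67, adjusted p = 0.313). ASH1 had 43.79, 52.15 and 46.22 TPM with Yox1 and 28.28, 12.95 and 12.02 TPM with Yox1-9A, with replicate 1 of Yox1-9A standing apart from the other 2. PCL9, a G1 cyclin of Pho85, differed by -1.12 (adjusted p = 0.551) and the interval of PST1, a wall protein, ran from -1.58 to -0.41 (adjusted p = 0.422). SIC1 itself, the inhibitor of Clb kinases, had 45.69, 53.52 and 68.31 TPM with Yox1 and 36.83, 27.86 and 32.6 TPM with Yox1-9A, and its difference of -0.49 had an interval from -1.13 to 0.15. FAR1, the Cdk1 inhibitor of the pheromone response, was called in both inductions (-1.59 and -2.06), and its difference of -0.48 was not called (adjusted p = 1.0).

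SWI5 mRNA was not among the calls, and its difference at 60 min was log2 0.07 (interval -0.65 to 0.79). SWI5 had 18.43, 25.49 and 28.85 TPM with Yox1 and 21, 19.64 and 20.61 TPM with Yox1-9A, which overlap. Protein levels and location were not analysed here.

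**Figure D2:**
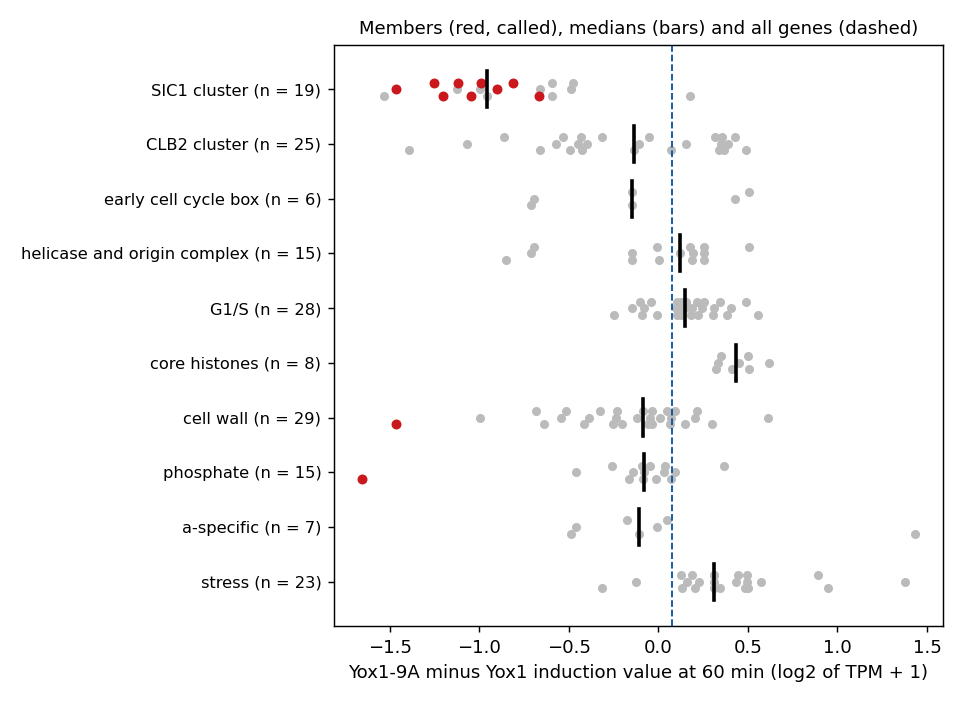
Differences at 60 min (Yox1-9A minus Yox1 induction value, log2 of TPM + 1) of the members of 10 gene lists, with red points for genes called, a bar for each median and a dashed line for the median of all genes. The SIC1 cluster holds 9 red points and a bar at -0.95, and the cell wall and phosphate lists hold 1 red point each.

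The difference appeared between 20 and 60 min. At 20 min 0 genes were called lower and 0 higher (0% each), with 30 and 44 at an unadjusted p under 0.05. The 14 genes had differences between -0.33 and 0.32 at 20 min, 6 of them below 0. The change of the difference from 20 to 60 min was itself tested, and 15 genes, 0.24%, were lower and 0 (0%) higher. In this test 10 members of the SIC1 cluster were called, and 12 of the 14 genes above were among the 15. The 20 and 60 min contrasts use the same 0 min libraries. YOX1 mRNA already differed between the inducible strains at 20 min, without overlap, and its values are given below.

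**Figure D3:**
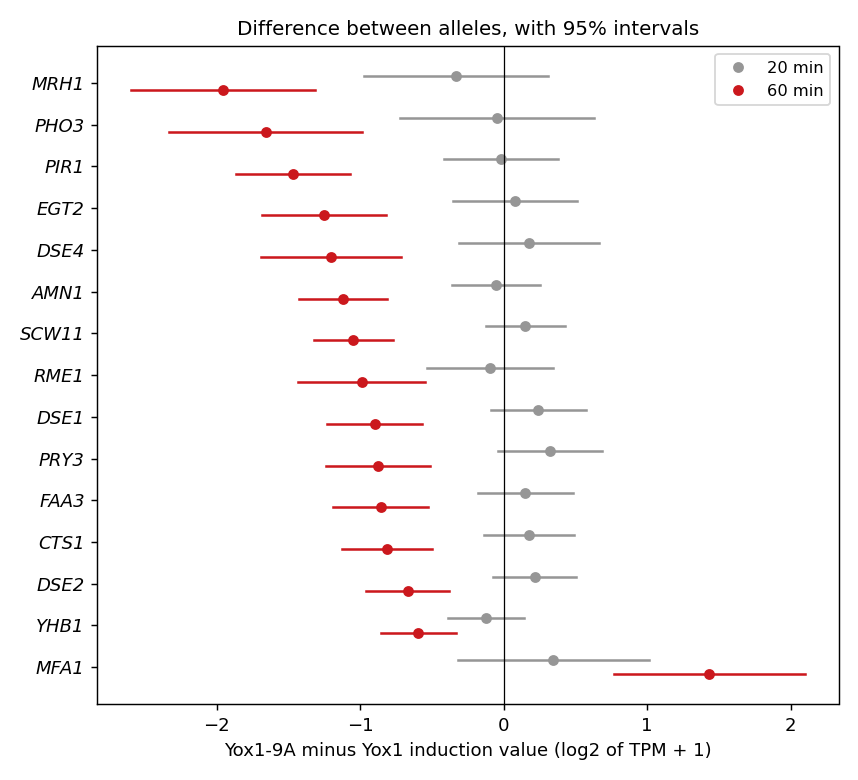
Difference between the alleles (log2 of TPM + 1) at 20 min in grey and at 60 min in red for the 14 genes called and MFA1, with 95% intervals. At 20 min the intervals of all 15 genes cover 0, and at 60 min those of the 14 genes lie below 0 and that of MFA1 above.

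Most genes lowered in either induction were lowered in both. The 2 inductions, which share no library, had a correlation of 0.796 across the 6255 genes, which are not independent of each other. The correlation and the counts that follow cover all genes tested, including HO, which the control strains induce (-9.35 with Yox1 and -9.27 with Yox1-9A). They also include YOX1, the gene switched on (4.84 and 4.69). Yox1-9A lowered 199 genes (3.18%) and raised 72 (1.15%) at 60 min, and Yox1 lowered 149 (2.38%) and raised 23 (0.368%). Of these, 132 were called lower in both inductions, with medians of -1.48 for Yox1-9A and -1.28 for Yox1, 67 with Yox1-9A and not Yox1, and 17 with Yox1 and not Yox1-9A. Passing in 1 induction and not in the other is no test of the difference: of the 139 genes called in a single induction, 9 were called in the difference itself. Of the 14 genes, 9 were called with Yox1-9A and not with Yox1, 3 (MRH1, PHO3 and PRY3) in both, and 2 (CTS1 and YHB1) in neither.

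**Figure D4:**
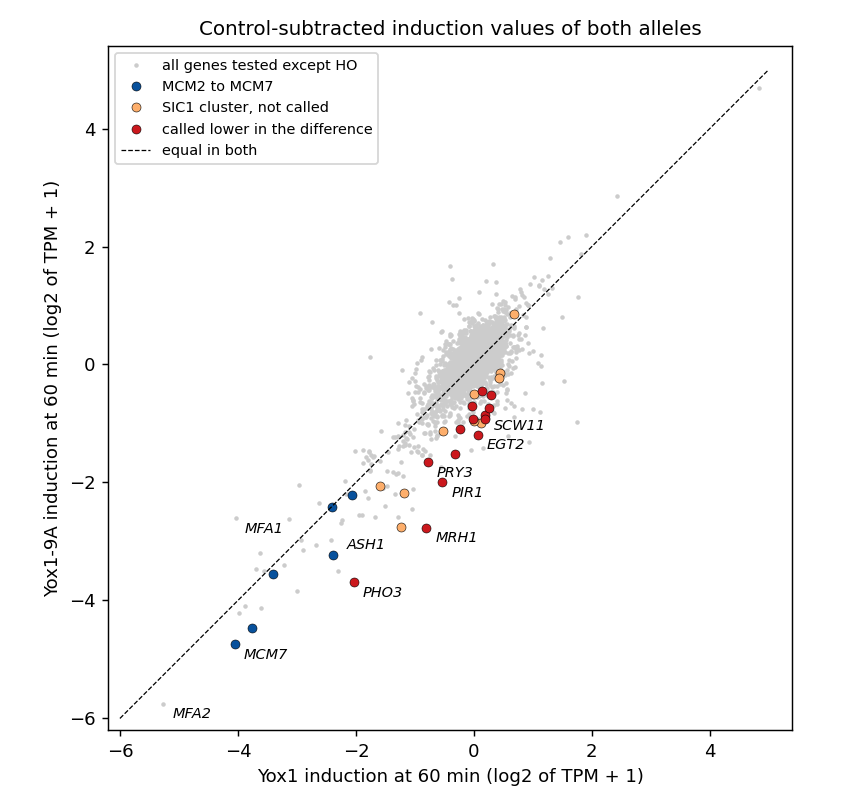
Control-subtracted induction values at 60 min (log2 of TPM + 1) with Yox1 on the horizontal and with Yox1-9A on the vertical axis, for the genes tested except HO, which the control strains induce. The red genes called in the difference lie below the dashed line of equal values, and several of them are near 0 for Yox1; MFA1 lies above the line.

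The 2 motifs were also counted over larger groups, with no test of a difference. Among the 132 genes lowered by both alleles, TAATTA was in 37.9% of the long windows and ACCAGC in 11.4%. Among the 67 genes called lower with Yox1-9A and not with Yox1, of which 65 had a window, TAATTA was in 29.2% and ACCAGC in 20%. Over the genes tested with a window the shares were 27.2% and 16.4%. The Ste12 motif TGAAACA was in 42.9% of the 14 long windows and 14.6% of all, the Forkhead motif in 28.6% and 12%, the Msn2 and Msn4 motif AGGGG in 42.9% and 39.7%, and the MBF motif ACGCGT in 7.14% and 6.33%. These are matches of letters, counted on both strands, and no binding was measured.

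The Mcm2-7 helicase, which unwinds DNA at replication origins, gave no calls between the forms. MCM7 had 2.07, 2.19 and 2.40 TPM with Yox1 and 0.862, 0.931 and 0.623 TPM with Yox1-9A at 60 min, from 55.58 to 60.99 and 46.81 to 54.13 TPM at 0 min. The MCM7 libraries do not overlap, but both groups are near the pseudocount of 1, and the difference of log2 -0.69 (95% interval -1.15 to -0.24) was not called (adjusted p = 0.794). For MCM2 the difference was -0.01 (interval -0.72 to 0.71), for MCM4 -0.85 and for MCM5 -0.71. CDC6, which loads the helicase, differed by 0.51, and 0 of 15 genes of the helicase and origin complex were called, with a median of 0.12. Of the 6 genes with an early cell cycle box 0 were called either, with a median of -0.15.

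Genes that Yhp1, the paralog of Yox1, can repress give a list that was chosen in other libraries. In the libraries with inducible Yhp1, 33 genes other than HO were lowered by Yhp1-13A at 20 or 60 min, and all were tested for Yox1. Of these, 30 had a difference below 0 (90.9%, against 33.3% of all genes), with a median of -0.55 against 0.08, and 2 were called lower, MRH1 and PHO3. Their median induction value was -1.58 with Yox1 and -2.42 with Yox1-9A. Next to MRH1 and PHO3 in this list were HOF1, which acts at the septum in cytokinesis (-1.39, adjusted p = 0.134), and WSC4, a wall sensor (-1.30, adjusted p = 0.103). Among genes of this list that both forms lowered strongly, the difference varied. HSP150 (-0.23), PRY1 (-0.21) and MSA1 (0.22) differed little. Their induction values were -3.98, -3.88 and -3.69 with Yox1 and -4.21, -4.09 and -3.47 with Yox1-9A. YRO2 (-0.83) and MCM7 (-0.69) differed more, and neither was called. For YRO2 and MCM7 the induction values were -3.00 and -4.05 with Yox1 and -3.83 and -4.74 with Yox1-9A.

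In the CLB2 cluster, the G2/M genes driven by Mcm1 and Fkh2, 0 of 25 members were called and the median was -0.14. HOF1 was the lowest, and SPO12, a FEAR component, followed at -1.07 (adjusted p = 1.0). The 8 core histone genes had differences between 0.32 and 0.62, all above the 0.08 of all genes, with 0 called. HTB2, for example, had an induction value of -0.77 with Yox1 and of -0.44 with Yox1-9A. Of the 23 stress genes 0 were called with a median of 0.31, and the 18 chaperone genes had a median of 0.27 with 0 called. Of 29 cell wall genes 1 was called, PIR1, and of 15 phosphate genes 1, PHO3.

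The gene nearest to a call above 0 was MFA1, which encodes the a-factor pheromone precursor. It had 80.65, 64.77 and 69.29 TPM with Yox1 and 288.1, 198.9 and 176.4 TPM with Yox1-9A at 60 min. The Yox1-9A libraries are all above the Yox1 libraries, and both are far below the 1207 to 1512 TPM of 0 min. The difference was log2 1.43 (SE 0.32, 95% interval 0.77 to 2.10), with an adjusted p of 0.0589. MFA2, the second a-factor gene, had 183.1, 148.7 and 115.7 TPM with Yox1 and 181.5, 134.1 and 92.58 TPM with Yox1-9A, which overlap, and a difference of -0.49 (adjusted p = 1.0). The 7 a-specific genes together had 0 calls and a median of -0.11. MSA2, a cofactor of G1 transcription, was among the 10 genes above 0 with the smallest p (log2 0.93, adjusted p = 1.0).

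The mRNA of the repressor itself differed between the inducible strains. YOX1 mRNA stood at 726.2, 1188 and 1223 TPM in the inducible YOX1 strain at 60 min and at 620.2, 590.8 and 652.1 TPM in the yox1-9A strain. All 3 yox1-9A values are below all YOX1 values. At 20 min the YOX1 strain held 1113, 1189 and 1245 TPM and the yox1-9A strain 845.2, 440.4 and 525.6 TPM, also without overlap. As an induction value the difference at 60 min was log2 -0.15 (95% interval -0.93 to 0.64), since the yox1-9A strain also had less at 0 min. It then held 19.22 to 24.83 TPM against 29.66 to 31.44 TPM. YHP1 mRNA fell with both forms, to 9.66, 15.34 and 12.67 TPM with Yox1 and 10.3, 6.82 and 6.50 TPM with Yox1-9A, and its difference of -0.18 had an interval from -1.35 to 0.99. The part of the YOX1 mRNA level in the differences above was not tested, and protein amounts were not analysed here. In Western blots of these strains after estradiol, the paper reports more of the phosphosite mutant proteins than of the wild type forms.

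**Figure D5:**
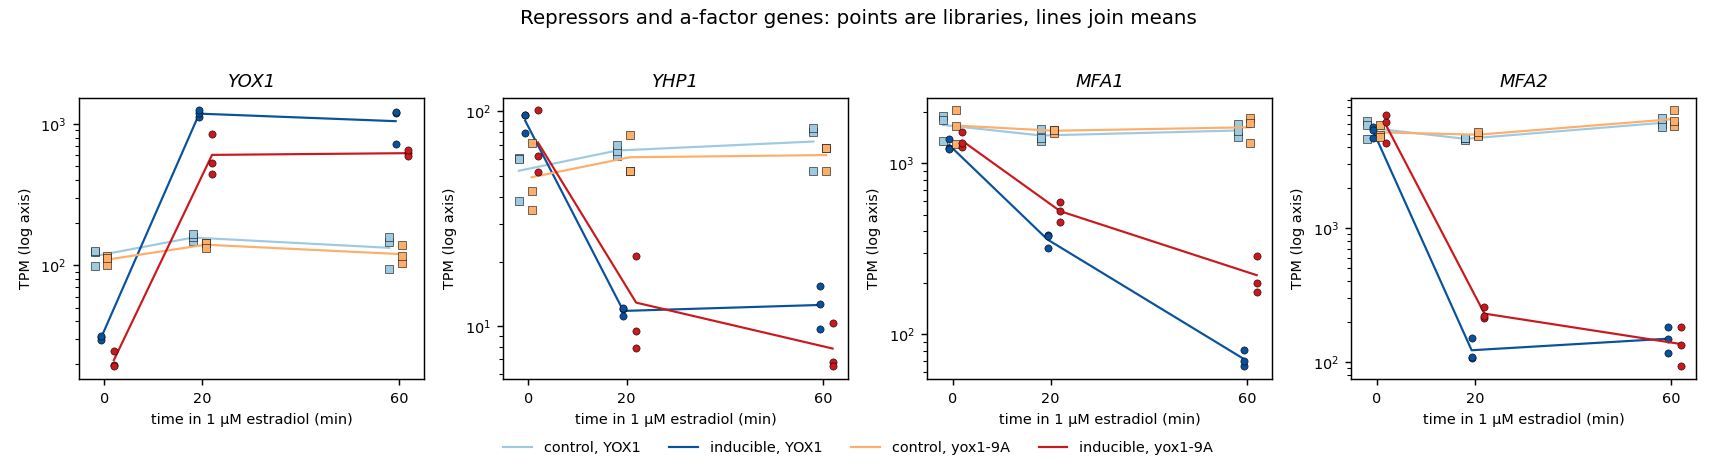
TPM on a log axis against time in 1 µM estradiol (min) for YOX1, YHP1, MFA1 and MFA2 in the 4 strains, with a point for each library and lines through the means of 3. At 60 min YOX1 is lower and MFA1 higher in the inducible yox1-9A strain than in the inducible YOX1 strain, and the points of MFA2 overlap.

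HO, a target of Swi5, cannot be read as an induction value, because the control strains express it from Z4pr. Their means at 60 min were 445 ± 40.1 and 381.7 ± 31.1 TPM (SD, n = 3). In the inducible strains HO went from 25.87 to 36.13 TPM at 0 min to 2.19 to 2.55 TPM with Yox1, and from 27.54 to 31.79 to 2.01 to 2.44 TPM with Yox1-9A. These ranges overlap.

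Leaving out 1 library moved the number of genes called lower by more than 1.5 times. Without replicate 1 of the inducible yox1-9A strain at 60 min, 22 genes were called lower, among them all 14 and also ASH1, PST1, BUD9, HOF1, CHS1, SUN4, MMR1 and VHT1. Of the 14 genes, 7 (MRH1, PHO3, PIR1, EGT2, AMN1, SCW11 and DSE1) were called under every setting tried, including each library left out in turn. For DSE2, PRY3 and YHB1, as for RME1, leaving out a library could end the call, in 13, 5 and 16 of 24 fits. No gene was called higher in the main fit, but MFA1 was in 5 of 24 fits that each left out 1 library.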

How the data were processed

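RNA sequencing of the yeast libraries was deposited as 2 tables of TPM per gene, and the yhp1 table was used for 1 gene list only. The authors scaled gene counts to TPM before they deposited them. The submitters' processing notes name STAR 2.5.3a, featureCounts 1.5.2 and the build R64. The labels speak of poly-A depletion and the methods of poly-A purification. The sources give neither strand nor depth, so the precision rests on the replicate spread, and overlapping or near-identical genes may share reads.

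After 4 empty lines were left out, the log2 of TPM plus a pseudocount of 1 was fitted over all 12 groups of the yox1 table with limma 3.58.1 in R 4.3.3, with variances that follow the mean, for genes whose mean reached 1 TPM. Tests are two-sided with Benjamini-Hochberg adjustment over 6255 genes. Of the identifiers, 5935 matched the reference annotation (R64), which gave symbols and sequences. The fit was also run on simulated libraries with known changes, and part of the changed genes was not called there. The simulated noise was independent between libraries, so effects shared by same-numbered libraries were not covered.

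The named genes are YOX1, YHP1, HO, the called genes, the 10 genes above 0 with the smallest p, and members of gene lists. Other genes named, such as HOF1 and WSC4, come from the Yhp1-13A list or from counts of calls. The gene lists and their members were chosen with earlier results of these data known. Alternatives changed the pseudocount, the filter, the scaling, the variance model, the subtraction of the control or of 0 min, a replicate block, the libraries fitted and each replicate.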

Additional observations from a re-analysis of the deposited data

Results flagged for a closer look

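In 15 genes the difference between Yox1-9A and Yox1 changed from 20 to 60 min by a test of that change itself (limma, adjusted p between 7.01e-06 and 0.0154), always towards lower values with Yox1-9A. On the log2 scale the change was -1.63 for MRH1, -1.61 for PHO3, -1.45 for PIR1, -1.44 for PST1 and -1.38 for DSE4. It was -1.34 for EGT2, -1.20 for SCW11, -1.20 for PRY3, -1.14 for DSE1 and -1.06 for AMN1. The rest had -1.01 (FAA3), -0.99 (CTS1), -0.95 (CRH1), -0.92 (BUD9) and -0.89 (DSE2). PST1, BUD9 and CRH1, a chitin transglycosylase, are not among the genes called at 60 min; their differences at 20 min were 0.44, 0.32 and 0.54, and at 60 min BUD9 had -0.60 and CRH1 -0.41. The YOX1 mRNA of the yox1-9A strain was lower than that of the YOX1 strain at 60 min (log2 -0.71, adjusted p = 0.0445), and its part in these changes was not tested.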

How the results depend on the processing

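Of the 14 genes lower at 60 min, all were called with a pseudocount of 0.5 or 5, without the filter, with a mean of at least 5 TPM and with robust variances, and 13 without the variance trend. Scaling to a common median gave 10 genes, 8 of them from the 14, and quantile normalization 11, with 9 from the 14; both lost DSE4, PRY3, FAA3, DSE2 and YHB1 (common median scaling CTS1 too), added HOF1 and WSC4 and moved the median of all genes from 0.08 to 0.01. The SIC1 cluster then had 6 and 7 calls and medians of -1.02 and -1.01. Without subtraction of the control 24 genes were lower and 1, MFA1, higher at 60 min, 2 (CDC6 and MSA2) higher at 20 min, and 31 lower and 1 higher in the change between the times. Without subtraction of 0 min 26 were lower and 2 (MFA1 and ELO1) higher at 60 min, and 2 (CDC6 and ELO1) higher at 20 min. Common median scaling and quantile normalization each called 1 gene, MSA2, higher at 20 min. With each library left out in turn, 10 to 22 genes were lower and 0 to 1 higher at 60 min, 15 to 23 lower and 0 to 0 higher in the change between the times, and 0 to 0 in either direction at 20 min. Replicate numbers are shared by the groups, and same-numbered libraries deviated together in part (median r = 0.17, over 0.1 in 56 of 84 pairs, 18 of 24 libraries closest to their own number). This hints at shared effects, but no label gives a pairing and not every pair was over 0.1, so the main fit has no block. A fit with the replicate block called 15 genes lower, the 14 and HOF1, and 0 higher at 60 min. No call reversed, but the differences of YOX1 (-0.39 to 0.08), YHP1 (-0.47 to 0.10), SWI5 (-0.10 to 0.23) and MCM2 (-0.14 to 0.13), none of them called, changed sign when single libraries were left out. Depth is unknown, and genes near 1 TPM such as MCM7 have compressed differences.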
